A study of Mus musculus with 6 samples.

Results

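The Schlafen genes (Slfn) encode intracellular proteins that share a core domain and are known for holding immune cells in a resting state and for acting on RNA. The short forms Slfn1 and Slfn2 consist of little more than that core, Slfn3 and Slfn4 are of intermediate length, and the long forms Slfn5, Slfn8, Slfn9 and Slfn14 add a helicase-like end. Several of the mouse genes are known to be induced by type I interferon and by activation of macrophages. The 6 members described here, Slfn1, Slfn2, Slfn4, Slfn5, Slfn8 and Slfn9, were taken by symbol, through their Ensembl identifiers in GENCODE vM21, from a count table of 21780 genes. They are 6 of the 9 genes with a Slfn symbol in that table, and the other 3, Slfn3, Slfn14 and Slfnl1, are given beside them.

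The study asked what whole glucan particles (WGP), a yeast β-glucan that is taken up by phagocytes, do to the myeloid cells of the pancreas. C57BL/6 mice received PBS or WGP by intraperitoneal injection, and 7 days later viable CD45+CD11b+ cells, the gate for myeloid leukocytes, were sorted from the pancreas for poly-A RNA sequencing. The study used six- to eight-week-old mice of both sexes, and 3 PBS and 3 WGP libraries were made. By the legend of the study's figure each library stands for 1 animal and all came from 1 experiment, so p-values measure the spread between the animals of that experiment.

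Total counts were 35334645, 38419377 and 40580936 in PBS replicates 1, 2 and 3 and 38240913, 43341834 and 41990018 in WGP replicates 1, 2 and 3. Levels are CPM, the counts of a gene relative to the TMM-scaled total of the library. The gate's genes were present in each library: Ptprc, which encodes CD45, stood between 949 and 1040 CPM with PBS and between 1540 and 1750 CPM with WGP, and Itgam, which encodes CD11b, stood between 189 and 254 CPM and between 379 and 417 CPM. Ptprc and Itgam were thus higher with WGP (log2 fold change 0.71 and 0.79, edgeR adjusted p = 0.00725 and 0.00618). The PBS libraries were not alike. The 4 Y-linked genes Ddx3y, Eif2s3y, Kdm5d and Uty together had 0 counts in PBS replicate 1 and 8972 and 10063 counts in PBS replicates 2 and 3, against 0, 0 and 1 counts in the WGP libraries. Apart from 1 count in WGP replicate 3, Y-linked counts were thus present in part of the PBS group alone. For each member the comparison is also given with their presence as a covariate. That fit sets the WGP libraries against PBS replicate 1 alone. Its spread comes from the WGP libraries and from PBS replicates 2 and 3, so its effect sizes are given without p-values.

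Each of the 6 members passed the filter on low counts. By edgeR's quasi-likelihood test, 4 of the 6 were called higher with WGP (p adjusted by Benjamini-Hochberg up to 0.05, log2 fold change from 1 upwards) and 0 lower, also with DESeq2 and with limma-voom. Of the 14429 genes tested, 4.53% were called higher, 4.96% lower and 9.49% in either direction. All 6 members were higher at the adjusted p alone, as were 7.54% of the genes tested, and the 3 WGP values lay above the 3 PBS values in all 6 members and in 16.0% of the genes tested. The median log2 fold change was 1.34 over the members and -0.05 over all genes tested. In sorted bulk samples, more cells that carry a transcript and more transcript per cell cannot be told apart. An exact permutation test of 3 against 3 libraries cannot go below a two-sided p of 0.1, so the adjusted p-values rest on the spread that edgeR shares across genes.

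**Figure D1:**
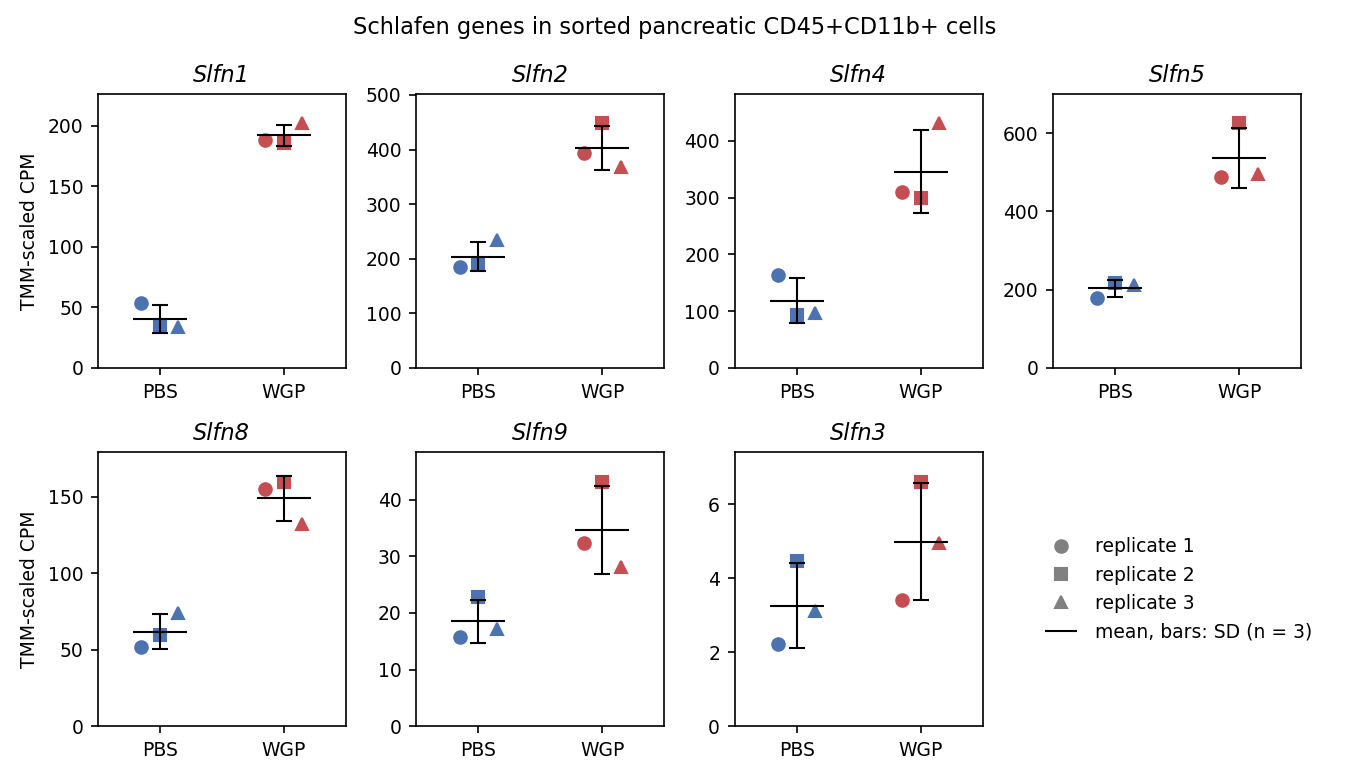
TMM-scaled CPM (vertical axis, linear from 0, a separate scale for each gene) of 6 Schlafen members and Slfn3 in 3 PBS and 3 WGP libraries, with symbols for the replicates, horizontal lines at the means and bars for the SD. The WGP points of Slfn1 sit between 186 and 202 CPM and its PBS points between 33.8 and 53.7 CPM, and in Slfn3 the groups overlap.

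Slfn1, the founding short member, whose forced expression is known to slow the growth of T cells, stood at 53.7, 33.8 and 34.0 CPM in PBS replicates 1, 2 and 3 and at 188, 186 and 202 CPM in WGP replicates 1, 2 and 3. The WGP libraries lay close together, PBS replicate 1 was the highest of its group, and the lowest WGP library was 3.47 times the highest PBS library. The means were 40.5 ± 11.5 CPM with PBS and 192 ± 8.42 CPM with WGP (SD, n = 3 each). The log2 fold change was 2.24 (SE 0.20, edgeR adjusted p = 6.27e-05), and 6.07% of the genes tested had a higher value. Slfn1 was the member that also passed a log2 fold change of at least 2, as did 1.44% of the genes tested. With Y-linked counts as a covariate its log2 fold change was 1.84.

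Slfn2, the other short member, is known to keep T cells and monocytes quiescent, and mice that lack its function lose these cells on activation. It was counted at 185, 193 and 234 CPM in the PBS libraries and at 394, 448 and 368 CPM in the WGP libraries, in the order of the replicates. PBS replicate 3 was the highest of its group and WGP replicate 3 the lowest of the other, and the groups did not overlap. The log2 fold change was 0.99 (SE 0.15, edgeR adjusted p = 0.00179), which passed the adjusted p and lay just below the fold threshold. It was called without PBS replicate 3 (1.10), without WGP replicate 1 (1.00) and without WGP replicate 3 (1.05). With the Y-linked covariate its log2 fold change was 1.13.

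Slfn4, of intermediate length, is known from macrophages and from myeloid cells that suppress T cells, and rises in macrophages on stimulation. Its values were 164, 93.6 and 97.1 CPM in PBS replicates 1, 2 and 3 and 310, 299 and 431 CPM in WGP replicates 1, 2 and 3. PBS replicate 1 and WGP replicate 3 stood above the rest of their groups, and the lowest WGP library was still 1.82 times the highest PBS library. The log2 fold change was 1.55 (SE 0.24, edgeR adjusted p = 0.00174). Without PBS replicate 1 it was 1.86, and with the Y-linked covariate 1.08. Slfn3, the other gene of this length, was counted low, at 2.21, 4.47 and 3.10 CPM with PBS and 3.42, 6.61 and 4.94 CPM with WGP. Its groups overlapped, and the log2 fold change of 0.61 had an SE of 0.63 (edgeR adjusted p = 0.59).

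Slfn5, a long member found in the nucleus, had 178, 218 and 212 CPM in the PBS libraries and 488, 625 and 496 CPM in the WGP libraries. PBS replicate 1 was here the lowest of its group, WGP replicate 2 was the highest of the other, and the lowest WGP library was 2.24 times the highest PBS library. The means were 203 ± 21.6 CPM and 536 ± 76.5 CPM (SD, n = 3 each), and the log2 fold change was 1.40 (SE 0.16, edgeR adjusted p = 0.000272). With the Y-linked covariate it was 1.59. Slfn5 shares 417 of its 75-base windows, the length of the study's reads, with Slfn5os, a gene on the opposite strand, so antisense reads may be part of its count.

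Slfn8, a long member, was at 52.0, 59.5 and 74.2 CPM with PBS and at 155, 160 and 132 CPM with WGP. The groups did not overlap, and the log2 fold change was 1.27 (SE 0.17, edgeR adjusted p = 0.000749), or 1.52 with the Y-linked covariate. Slfn9, its close relative and chromosomal neighbour, was at 15.7, 22.8 and 17.2 CPM with PBS and at 32.3, 43.2 and 28.2 CPM with WGP. Replicate 2 was the highest library in both groups, and the lowest WGP library was 1.24 times the highest PBS library. Its log2 fold change was 0.90 (SE 0.25, edgeR adjusted p = 0.0365). The adjusted p by edgeR was above 0.05 when PBS replicate 1 (adjusted p = 0.079), PBS replicate 3 (adjusted p = 0.0938), WGP replicate 1 (adjusted p = 0.0836) or WGP replicate 2 (adjusted p = 0.124) was left out. It was also above 0.05 by edgeR with library totals only (adjusted p = 0.0545). With the Y-linked covariate the log2 fold change of Slfn9 was 1.14. Without PBS replicate 2 (1.07) or WGP replicate 3 (1.03) Slfn9 met both thresholds.

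Slfn14, a long member known as a ribosome-associated RNA-cutting enzyme of platelet and red cell precursors, had 7 counts in PBS replicate 1 and 0 in the other 5 libraries. Slfnl1, a related gene on chromosome 4, had 0 counts in all 6. A count of 0 allows up to 3 counts, or between 0.0723 and 0.0814 CPM depending on the library, which covers counting error only. Neither gene passed the filter on low counts. The most frequent low count lay between 17 and 43 in a library. The number of reads per molecule was not measured here, and the values of Slfn14, Slfn3 and Slfn9 may be less precise than their counts imply.

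The 2 directions of deviation in PBS replicate 1 split the members. Relative to the mean log2 level of its group, that library was at 0.44 for Slfn1 and 0.52 for Slfn4, and at -0.13, -0.18, -0.24 and -0.22 for Slfn2, Slfn5, Slfn8 and Slfn9. Since the Y-linked covariate compares with that library alone, it lowered the log2 fold changes of the first pair and raised those of the other 4. In WGP replicate 2 the 3 long members and Slfn2 were above their group mean, by 0.11 to 0.35 on the log2 scale, and Slfn1 and Slfn4 were at -0.04 and -0.19. Over the 6 libraries, the Pearson r of log2(CPM + 1) between members ran from 0.69 for Slfn4 with Slfn9 to 0.995 for Slfn2 with Slfn8. These values describe libraries of 2 groups, and much of each r is the distance between the groups.

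The summed level of the 6 members was 648, 620 and 668 CPM in PBS replicates 1, 2 and 3 and 1570, 1760 and 1660 CPM in WGP replicates 1, 2 and 3. The mean rose from 645 ± 24.0 CPM to 1660 ± 97.1 CPM (SD, n = 3 each), a ratio of 2.57. The sum was more even within the PBS group than the values of Slfn1 or Slfn4, whose SDs were 28.3% and 33.5% of their PBS means.

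Between genes, levels were compared as CPM per kb of exon. Slfn2 was the highest member per kb in both groups, at 122 ± 15.8 with PBS and 242 ± 24.5 with WGP (SD, n = 3 each), apart from the next gene in each group. With PBS the order went on with Slfn5 (32.0 ± 3.42), Slfn4 (29.8, with a range of 23.6 to 41.4), Slfn1 (21.7 ± 6.15), Slfn8 (15.1 ± 2.76) and Slfn9 (3.11 ± 0.627). The ranges of Slfn5 and Slfn4, of Slfn4 and Slfn1 and of Slfn1 and Slfn8 overlapped, and Slfn9 lay below the rest. With WGP, Slfn1 came next after Slfn2 at 103 ± 4.52, followed by Slfn4 (87.4 ± 18.5), Slfn5 (84.8 ± 12.1), Slfn8 (36.4 ± 3.60) and Slfn9 (5.80 ± 1.30). The ranges of Slfn1, Slfn4 and Slfn5 overlapped from neighbour to neighbour, while Slfn8 and Slfn9 each lay apart. The share of Slfn1 in the summed level per kb was 12.8%, 8.61% and 7.68% in the PBS libraries and 18.8%, 16.9% and 19.5% in the WGP libraries. The share of Slfn2 was 49.4%, 55.1% and 59.1% with PBS and 44.1%, 45.7% and 40.0% with WGP. The groups did not overlap in these 2 shares, with Slfn1 taking more of the sum with WGP and Slfn2 less, and they overlapped in the shares of the other 4 members.

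The family lies in a cluster on chromosome 11 of GRCm38, at chr11:82942341-83286726, a span of 344 kb with 10 annotated Slfn genes. Of these, 8 are in the table, and the pseudogene Slfn10-ps and the antisense gene Slfn5os are not analysed here. Slfn5, Slfn2, Slfn1 and Slfn4 lie on the plus strand, and Slfn9 and Slfn8 on the minus strand. Slfn8 and Slfn9 share 6.99% and 5.9% of their 75-base windows with other genes, chiefly with Slfn10-ps and each other, so a small part of their reads could have been split or dropped in counting. The same share was 0% in Slfn1, 1.7% in Slfn2, 3.12% in Slfn4, 6.78% in Slfn3 and 8.22% in Slfn5. At 25 bases, 24.9% of the windows of Slfn8 occurred in Slfn9 and 16.2% of those of Slfn4 in Slfn3.

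Of 25 protein-coding genes in the table within 500 kb of the cluster, 22 were tested, 1 was called higher and 1 lower by edgeR, and 4 passed the adjusted p. The median log2 fold change of the neighbours was -0.05, the same as over all genes tested. The called pair were chemokine genes: Ccl5, which attracts T cells and monocytes, was at 126, 71.6 and 38.3 CPM with PBS and 283, 610 and 531 CPM with WGP (log2 fold change 2.59, SE 0.41, edgeR adjusted p = 0.00198). Ccl4, a chemokine of activated macrophages, went the other way, from 284, 316 and 322 CPM to 122, 105 and 116 CPM (log2 fold change -1.43, SE 0.14, edgeR adjusted p = 0.000113).

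**Figure D2:**
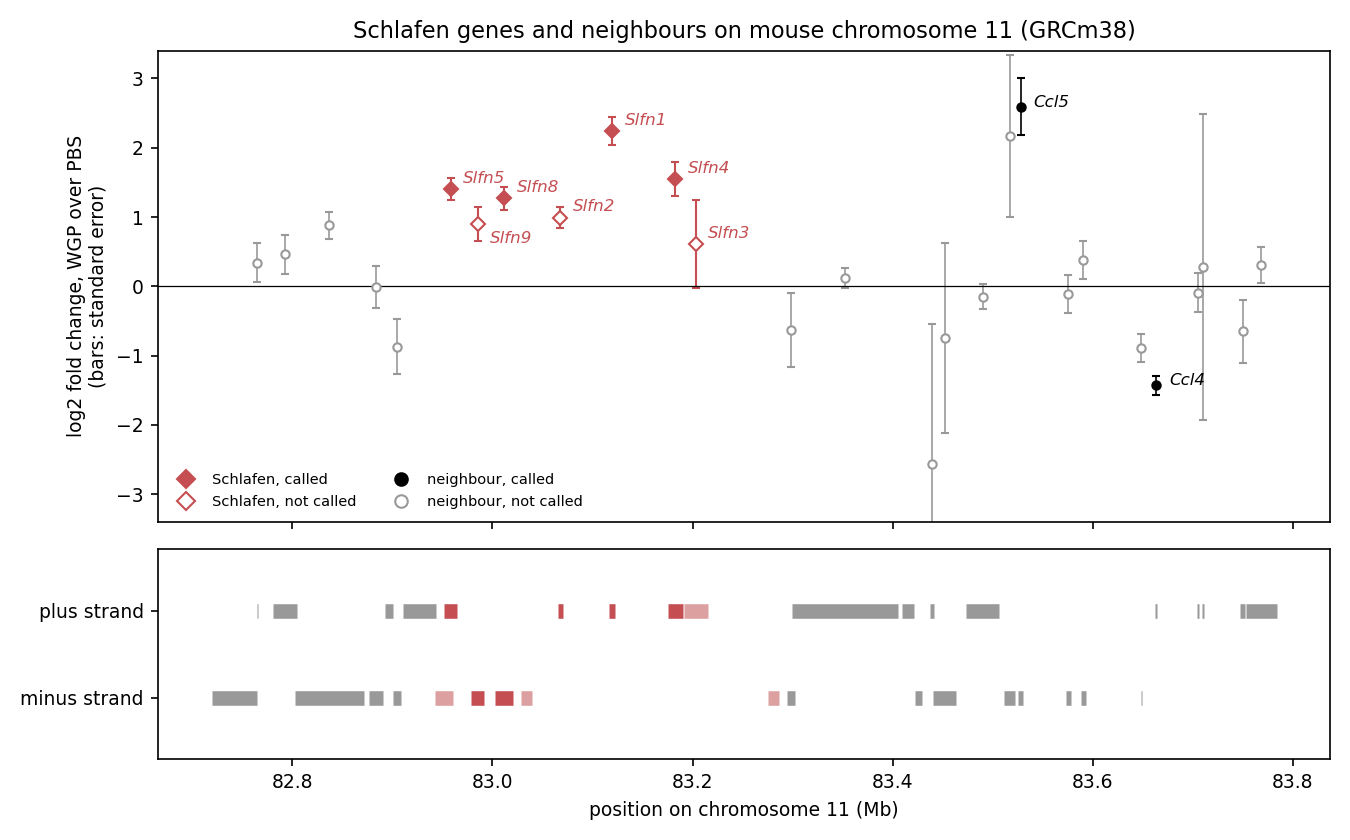
Log2 fold change of WGP over PBS (vertical axis, bars for the standard error) of Schlafen genes and of their tested neighbours by position on chromosome 11 (horizontal axis, Mb, GRCm38), with gene bodies by strand below, members in red, other Slfn genes in pale red and neighbours in gray. The 7 tested Slfn genes lie between 0.61 and 2.24, and of the neighbours Ccl5 (2.59) and Ccl4 (-1.43) were called. Cct6b and Unc45b, which had no counts in all libraries of 1 group, lie outside the axis.

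Promoters were searched because the members moved together and the family is known for its response to interferon. RefSeq gave 7 promoter windows for the 6 members (GRCm38.p6, from 250 bases before to 50 bases after the start of transcription), with 2 starts for Slfn8. The core of the interferon-stimulated response element, GAAANNGAAA on either strand, was in 4 of the 7 windows, which belong to Slfn5, Slfn8 and Slfn9. It was in 3.44% of all 32851 promoters, in 53.8% of 26 promoters of type I interferon-induced genes and in 53.3% of 15 promoters of interferon gamma-induced genes. The gamma-activated site, TTCNNNGAA, was in 0 of the 7 windows, in 8.3% of all promoters and in 19.2% and 33.3% of the promoters of the same 2 lists. The windows of Slfn1, Slfn2 and Slfn4 did not hold these letters. The windows with a match are printed 5′ to 3′ on the strand of the gene, with the match in capitals. Slfn5 is at chr11:82951852-82952151 (plus strand), Slfn8 at chr11:83020761-83021060 (minus strand) and Slfn9 at chr11:82991781-82992080 (minus strand).
Slfn5: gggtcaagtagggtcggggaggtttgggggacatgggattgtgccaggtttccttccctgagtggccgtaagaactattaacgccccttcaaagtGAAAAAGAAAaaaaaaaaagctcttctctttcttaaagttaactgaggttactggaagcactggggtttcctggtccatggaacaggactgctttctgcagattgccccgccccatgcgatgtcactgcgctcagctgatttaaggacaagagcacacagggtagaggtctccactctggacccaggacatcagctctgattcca
Slfn8: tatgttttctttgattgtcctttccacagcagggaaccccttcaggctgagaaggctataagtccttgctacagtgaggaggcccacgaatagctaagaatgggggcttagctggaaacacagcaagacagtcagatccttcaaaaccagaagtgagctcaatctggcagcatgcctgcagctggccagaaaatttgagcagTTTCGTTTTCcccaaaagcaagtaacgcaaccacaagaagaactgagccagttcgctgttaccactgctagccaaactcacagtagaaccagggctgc
Slfn9: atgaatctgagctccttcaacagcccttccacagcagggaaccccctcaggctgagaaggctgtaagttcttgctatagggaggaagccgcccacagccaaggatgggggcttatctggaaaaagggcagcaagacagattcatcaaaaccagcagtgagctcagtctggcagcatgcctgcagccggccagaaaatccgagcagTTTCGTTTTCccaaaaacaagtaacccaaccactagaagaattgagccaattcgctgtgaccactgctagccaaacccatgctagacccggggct
The match begins at position -155 from the start of transcription in Slfn5, at -48 in Slfn8 and at -45 in Slfn9, and Slfn8 and Slfn9 share its letters, TTTCGTTTTC, on the opposite strand. In the other Slfn8 window the same site is at -136.

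The interferon-induced genes were described from fixed lists. Of 31 type I interferon-induced genes 30 were in the table and tested, and 20 were called higher and 1 lower by edgeR, with a median log2 fold change of 1.27, near the 1.34 of the members. Zbp1, a sensor of nucleic acids, Irf7, a factor that drives interferon genes, and Oasl2, of the oligoadenylate synthetase family, rose by 2.98, 1.96 and 1.79 on the log2 scale. Oasl1, a repressor of Irf7 translation, was called lower, at -1.53 (SE 0.20, edgeR adjusted p = 0.000688). Of 16 interferon gamma-induced genes 14 were called higher and 0 lower by edgeR (15 higher and 0 lower at an unadjusted p under 0.05, and 0 lower with DESeq2 and limma-voom), with a median of 3.41. Gbp2, a GTPase that acts against intracellular microbes, went from 70.9, 64.6 and 59.7 CPM to 1230, 3140 and 1600 CPM, and the chemokine Cxcl9 from 12.7, 22.1 and 7.48 CPM to 712, 1720 and 922 CPM. In both genes WGP replicate 2 was the highest library, as in Zbp1, Oasl2, Slfn2, Slfn5, Slfn8 and Slfn9. In Irf7, Slfn1 and Slfn4 the highest library was WGP replicate 3.

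Of 10 interferon receptor and signaling genes, 2 were called higher and 0 lower by edgeR (8 higher and 0 lower at an unadjusted p under 0.05, and the same calls with DESeq2 and limma-voom), with a median log2 fold change of 0.57. These were Ifngr2, a chain of the interferon gamma receptor (1.51, SE 0.13), and the kinase Jak2 (1.50, SE 0.17), while Jak1 was at 0.03 (SE 0.14). Of 7 interferon genes, 2 passed the filter. Ifnb1 was at 9.78, 11.8 and 12.6 CPM with PBS and had 0 counts in each WGP library (edgeR adjusted p = 0.000153), and Ifng was at 12.3, 5.57 and 0 CPM with PBS and 1.00, 3.28 and 5.42 CPM with WGP. Ifna1, Ifna2, Ifna4, Ifna5 and Ifne had 0 counts in the 6 libraries. Since Schlafen proteins are known for growth restraint, 16 cell cycle genes were also read. Of these, 0 were called higher and 1 lower by edgeR (1 higher and 5 lower at an unadjusted p under 0.05, and 0 higher and 2 lower with DESeq2), with a median of -0.41. The number called lower was 3 without PBS replicate 2 or WGP replicate 2, and 4 with library totals only. It was 2 without PBS replicate 3, WGP replicate 1 or WGP replicate 3, and 0 were called higher in these fits. More were called lower with the Y-linked covariate, which compares with PBS replicate 1 alone. The gene called was Mcm7, of the replication helicase (-1.31, SE 0.27, edgeR adjusted p = 0.00916). It just missed the fold threshold without PBS replicate 1, where 1 other gene of the list was called lower. Mki67, a marker of dividing cells, was at -0.01 (SE 0.30), between -0.66 with the Y-linked covariate and 0.46 without PBS replicate 1.

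Markers of cell types also differed between the groups, some higher and others lower with WGP, and their part in the result was not tested. Of 9 genes of the sorted gate and myeloid identity 2 were called higher and 0 lower by edgeR, DESeq2 and limma-voom. They summed to 11000, 17100 and 17500 CPM in the PBS libraries and 26200, 25100 and 26600 CPM in the WGP libraries. Of 8 Ly6C-high monocyte markers 4 were called higher and 1 lower by edgeR (6 higher and 1 lower by limma-voom), none was at 0 in all libraries, and Fn1 was the most abundant. The list summed to 2990, 4760 and 6470 CPM in the PBS libraries and 6990, 8190 and 6530 CPM in the WGP libraries. Ly6c2 was at 144, 80.3 and 28.2 CPM with PBS and 658, 519 and 642 CPM with WGP, and Ccr2, the receptor by which monocytes leave the marrow, rose by 1.98 on the log2 scale (SE 0.24). F13a1, which macrophages also make, was the marker called lower (-2.57, SE 0.32). Of 10 resident macrophage markers 8 were called lower and 0 higher by edgeR (9 lower and 0 higher at an unadjusted p under 0.05, and the same calls with DESeq2 and limma-voom). Fewer were called lower with the Y-linked covariate, which compares with PBS replicate 1 alone. Their sum was 9060, 15500 and 18900 CPM with PBS and 3370, 5450 and 4770 CPM with WGP, with C1qa the most abundant and none at 0. Folr2 and Timd4, which mark long-lived tissue macrophages, were at -3.67 (SE 0.33) and -3.55 (SE 0.37).

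PBS replicate 1, the library with the highest Slfn1 and Slfn4 of its group, also had the highest sums of neutrophil and B cell markers. The same held for NK cell, plasmacytoid dendritic cell and eosinophil markers (242, 382 and 85.5 CPM) and for cell cycle genes (1460 CPM). Its sums of resident macrophage and Ly6C-high monocyte markers were the lowest of its group. The Ly6C-high list was split, however. Ly6c2 (144 CPM) and other markers of that list called higher with WGP had their highest PBS level in PBS replicate 1. Ccr2 (224 CPM) and F13a1 (1340 CPM) had their lowest there. Neutrophil markers summed to 6640, 3780 and 2450 CPM in the PBS libraries and 2710, 2880 and 2840 CPM in the WGP libraries, with S100a9 the most abundant, none of 12 at 0, and 1 called higher and 2 lower by edgeR (1 higher and 1 lower by limma-voom). With the Y-linked covariate, which compares with PBS replicate 1 alone, the higher call was lost and more markers were called lower. Those called lower were 6 without PBS replicate 3 and 1 without PBS replicate 1, WGP replicate 1 or WGP replicate 3. B cell markers summed to 2620, 654 and 383 CPM with PBS and 157, 181 and 92.3 CPM with WGP, with Cd79a the most abundant, none at 0 and all 6 called lower by edgeR (5 by limma-voom, and 5 and 4 by edgeR without WGP replicate 1 or 3). Acinar cell markers, from the tissue around the sorted cells, summed to 1710, 4160 and 998 CPM with PBS and 277, 437 and 263 CPM with WGP, with PBS replicate 2 the highest, Pnlip the most abundant, none at 0 and all 7 called lower. Of 8 platelet and megakaryocyte markers, Gp9, Gp1ba and Gp5 had 0 counts in the 6 libraries, and Pf4, which macrophages also make, was the most abundant and the gene called by edgeR and DESeq2 (-4.79, SE 0.27), while limma-voom called 2 lower. Without PBS replicate 1 edgeR also called Gp6 higher (10.15, adjusted p = 0.00901), a gene at up to 5.06 CPM. That list summed to 274, 392 and 456 CPM with PBS and 27.8, 26.3 and 27.1 CPM with WGP.

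Conventional dendritic cell markers summed to 704 ± 173 CPM with PBS and 278 ± 62.4 CPM with WGP (SD, n = 3 each), with Clec10a the most abundant and 2 of 8 called lower and 0 higher by edgeR (1 higher and 3 lower at an unadjusted p under 0.05, and 0 higher with limma-voom). DESeq2, and edgeR without WGP replicate 2, called 1 higher besides these 2. For plasmacytoid dendritic cells 2 of 6 (Siglech and Ly6d) were called lower by edgeR and 1 by limma-voom, and Ly6d had an edgeR adjusted p above 0.05 without WGP replicate 1 (0.0554) or 3 (0.0573). For NK cells 2 of 8 (Gzma and Gzmb) were called lower by edgeR and DESeq2 and 0 by limma-voom. The edgeR adjusted p of Gzma and Gzmb was above 0.05 without PBS replicate 2 (0.0501 and 0.067), WGP replicate 1 (0.0749 and 0.0594) or WGP replicate 3 (0.067 and 0.0627). For T cells 1 of 8 (Cd8a, at under 3 CPM) and for mast cells and basophils 1 of 5 tested (Kit) were called higher by edgeR. DESeq2 called 2 T cell markers higher, Cd8a among them. Cd8a was not called in 8 of the 18 alternatives that tested it, among them those without PBS replicate 2 (edgeR adjusted p = 0.0831), PBS replicate 3 (0.0659) or WGP replicate 1, 2 or 3 (0.109, 0.131 and 0.0989). Without PBS replicate 3 edgeR called 1 other T cell marker higher and, of the mast cell and basophil markers, Mcpt8 lower (-10.78, adjusted p = 0.0161). Of 7 eosinophil markers edgeR called 0, with 1 higher and 2 lower at an unadjusted p under 0.05, and DESeq2 called 1 in each direction. By edgeR, Il5ra was called lower without PBS replicate 3 (-2.49, adjusted p = 0.024) and Ccr3 higher without WGP replicate 3 (2.20, adjusted p = 0.0439). Of 6 erythroid markers tested in the 6 libraries, 0 were called by edgeR, DESeq2 and limma-voom, and 0 had an unadjusted p under 0.05. This rested on WGP replicate 2: the list summed to 104, 111 and 114 CPM with PBS and 32.9, 207 and 31.2 CPM with WGP, with Hbb-bs the most abundant. Without that library Hbb-bs (-1.71), Hba-a1 (-1.76), Hba-a2 (-1.76) and Hbb-bt (-1.99) were called lower by edgeR (adjusted p = 0.000813, 0.0112, 0.0155 and 0.023). Endothelial, fibroblast and mesothelial markers summed to 216, 89.9 and 76.0 CPM with PBS and 77.5, 1300 and 64.5 CPM with WGP. WGP replicate 2, which was the highest WGP library in Slfn2, Slfn5, Slfn8 and Slfn9, stood apart there through Col3a1 (787 CPM) and Col1a1 (374 CPM). Of these 8 markers 1 was called higher by edgeR, DESeq2 and limma-voom: Kdr, at 3.90, 7.91 and 1.73 CPM with PBS and 21.0, 36.2 and 20.4 CPM with WGP (2.52, SE 0.52, edgeR adjusted p = 0.00839). By edgeR, Col1a1 was also called higher without WGP replicate 1 (3.85) or 3 (3.84), Pecam1 was called lower without PBS replicate 3 (-1.70), and without WGP replicate 2 there were 2 called lower, Col3a1 (-1.52) among them. With the Y-linked covariate Kdr, Kit, Cd8a and Cd209a, the other dendritic cell marker called lower beside Clec10a, were no longer called. Other markers, among them Pecam1, Mcpt8 and Il5ra, were called lower there. That fit has 1 library on the PBS side, so these changes of call are not read as results.

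The genes with the pattern most like each member were found among 11681 tested genes with a mean of at least 1 CPM, by Pearson r of log2(CPM + 1) over the 6 libraries. The 6 libraries form 2 groups, so each r rests on few points and is a description. Slfn1 was closest to Oas3 (r 0.9995), an interferon-induced RNA sensor that was at 58.9, 38.9 and 37.7 CPM with PBS and 184, 195 and 206 CPM with WGP, then to Exoc2 and Cox7a2. Slfn2 was closest to Srp72 (0.9994), of the signal recognition particle, then to Cdc42ep2 and Tmppe. A high r does not mean a change of like size. The log2 fold change was 0.28 in Srp72 (edgeR adjusted p = 0.206) and 2.12 in Cdc42ep2, against 0.99 in Slfn2. Slfn4 was closest to Ldhb (0.9964), a lactate dehydrogenase chain, then to Uqcrfs1 and Psma6. Slfn5 was closest to Slamf8 (0.9993), a receptor of myeloid cells, then to Sh3bp2 and to Cybb, the catalytic chain of the phagocyte oxidase. Cybb was at 903, 1100 and 1130 CPM with PBS and 3000, 3720 and 2970 CPM with WGP. Slfn8 was closest to Capza2 (0.9955), which caps actin filaments, then to Slfn2 and Arpc1b, and Slfn9 to Il4ra (0.9974), a chain of the interleukin receptor that drives alternative activation, then to Aig1 and H6pd. Slfn3 was closest to Itgb1bp1 (0.9946), then to Eif3c and Prmt9.

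**Figure D3:**
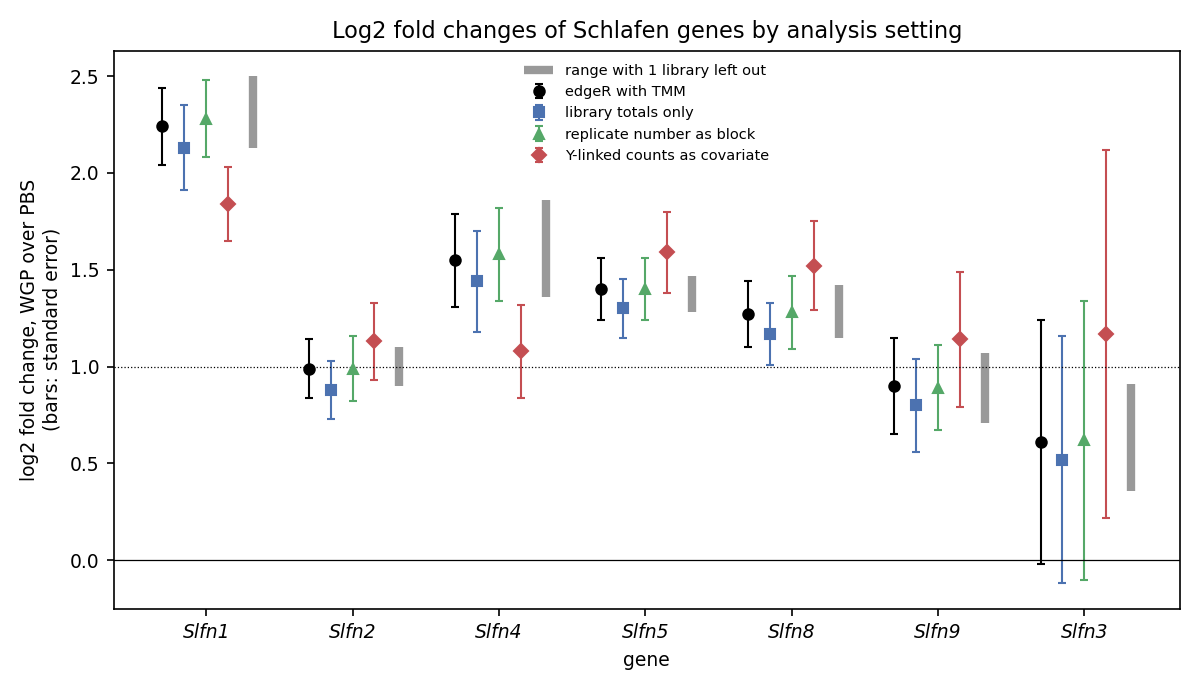
Log2 fold change of WGP over PBS (vertical axis) of 6 Schlafen members and Slfn3 in edgeR with TMM scaling, with library totals only, with the replicate number as a block and with Y-linked counts as a covariate (points, bars for the standard error), and the range when 1 library is left out (gray bars). The dotted line marks the fold threshold of 1, and the members stay above 0 in each setting drawn, from 0.71 for Slfn9 to 2.50 for Slfn1.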

How the data were processed

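Per the study's methods, the authors aligned single-end reads of 75 bases to mm10 with STAR 2.6 and deposited raw counts per Ensembl gene from HTSeq 0.10.0; annotation release and strand setting are not given in the sources used here. Tested were 14429 protein-coding genes (GENCODE vM21) whose RLE-normalized counts summed to 10 or more across all libraries, by edgeR 4.0.16 (R 4.3.3; glmQLFit, TMM, Benjamini-Hochberg adjustment over all genes tested), and were called up to an adjusted p of 0.05 with a log2 fold change of 1 or more in size. Standard errors were derived from the F statistic, as log2 fold change over its signed root. The fit was tested on simulated data. Members and lists were chosen with earlier results of these data known. Named were all Slfn genes, the 3 genes most correlated with each of them at 1 CPM or more (applied to Slfn3 too), called neighbours and, of each list, a selection from the called or most abundant genes; Itgam was added to check the gate, and Cct6b and Unc45b for the plot. 2 genes of the lists are not reported here by name and stay in the counts of their lists. Alternatives covered scaling, test (DESeq2 1.42.0, limma 3.58.1), filter, features, depth, block, covariate, thresholds and each library left out. Counts divided by the most frequent low count of the library were added after seeing the data. Figures were drawn with matplotlib 3.10.9.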

Additional observations from a re-analysis of the deposited data

How the results depend on the processing

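All 6 members had a higher level with WGP under each of the 19 alternative fits. Apart from the Y-linked covariate, whose PBS side is 1 library, Slfn1, Slfn2, Slfn4, Slfn5 and Slfn8 passed the adjusted p in each. Slfn9 did so in 13 and Slfn3 in 0. The log2 fold changes ran from 1.84 to 2.50 for Slfn1, 0.88 to 1.13 for Slfn2, 1.08 to 1.86 for Slfn4, 1.28 to 1.59 for Slfn5, 1.15 to 1.52 for Slfn8 and 0.71 to 1.14 for Slfn9. The number of members called higher was 4 in the reported analysis, 4 to 6 with 1 library left out, 6 at the adjusted p alone and 1 at a log2 fold change of 2 or more in size. Called genes numbered 1146 to 1396 with 1 library left out, 1703 with DESeq2, 2071 at the adjusted p alone and 568 at the higher fold; the last 2 follow from the thresholds. The ratio of the summed level was 2.50 to 2.65 with 1 library left out and 2.40 with library totals only, a scaling that moved the median of all genes by -0.10 on the log2 scale. With the replicate number as a block, 1341 genes and 4 members were called and no member's call changed. Same-numbered libraries did not deviate together (correlations of 0.0528, -0.0766 and 0.0736). The study states no pairing, and so few libraries cannot settle whether the numbers pair them. With exon length replaced by unique 75-base windows, Slfn4 and Slfn5 changed places in the WGP order, within overlapping ranges, and Slfn1 and Slfn8 no longer overlapped in the PBS order. Dividing counts by the most frequent low count of the library, chosen after seeing the data, gave 1587 called genes and the same 4 members. Of 102 other genes under the naming rule that were tested, 65 passed the adjusted p; 46 of these did so in each alternative that tested them, 19 did not in at least 1, and 0 changed direction. Of those that did not pass, 19 did so in at least 1 alternative, Col3a1 in the other direction. The alternatives behind these counts include the Y-linked covariate, whose PBS side is 1 library.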
